A study of Mus musculus with 9 samples.

Results

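The nuclear genes for subunits of the mitochondrial respiratory chain and ATP synthase were followed in the SV40-transformed line MH-S, which derives from alveolar macrophages of the mouse. Members were chosen by symbol: those beginning with Ndufa, Ndufb, Ndufc, Ndufs, Ndufv, Uqcr, Cox4i, Cox5, Cox6, Cox7, Cox8 or Atp5, and Sdha, Sdhb, Sdhc, Sdhd and Cyc1. The rule left out 8 assembly factors and 9 pseudogene symbols, and it gave 91 members of the 56980 gene identifiers in the deposited table. They comprised 39 genes of complex I, 4 of complex II, 9 of complex III, 21 of complex IV and 18 of complex V, the ATP synthase. Ndufa4 and its relative Ndufa4l2 were counted with complex IV, where the Ndufa4 protein is found, and Atp5s came in through its prefix, although newer annotation names it Dmac2l and it is a coupling factor outside the main enzyme.

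Polyadenylated RNA was sequenced from 9 libraries after 24 h. The 3 control libraries came from MH-S cells labelled control, 3 libraries from cells exposed to copper oxide nanoparticles (CuO NPs) at 20 µg/ml, and the last 3 from cells that received both CuO NPs at 20 µg/ml and TTM at 10 µM. The labels leave TTM unexplained. In work on copper the letters usually stand for tetrathiomolybdate, a chelator that binds copper. No group had TTM without nanoparticles, so a difference between the groups with and without TTM cannot be divided into an action on the copper response and an action of TTM itself. The labels do not say whether replicates were separate cultures, so the p-values measure the spread between these libraries, which may be technical.

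The respiratory chain moves electrons from NADH and succinate to oxygen and pumps protons across the inner mitochondrial membrane, and the ATP synthase lets them flow back to make ATP. Complex I accepts electrons from NADH, complex II from succinate, complex III passes them from ubiquinol to cytochrome c, and complex IV, a copper enzyme, hands them to oxygen. Most subunits are encoded in the nucleus and a core set in mitochondrial DNA, so assembly draws on both genomes. In macrophages the chain is known both as an energy source and as part of inflammatory signalling, with succinate oxidation at complex II a well-studied link.

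Values are TPM, transcript abundances corrected for length and scaled to 1 fixed total per library. A gene was tested when it reached 1 TPM in at least 3 of the 9 libraries, and it was called higher or lower when limma gave an adjusted p below 0.05 over all 12904 tested genes. Differences are log2 differences of TPM + 1. Of the 91 members, 81 were tested. The other 10 never exceeded 0.87 TPM, and 6 of them were listed at 0 in every library: the pseudogene-like entries Ndufa11b, Ndufs6b and Cox6c2, and Cox7b2, Cox8b and Cox8c, which are isoforms known from other tissues. A member could pass through its level in 1 group alone.

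The libraries held markers of the labelled cell type. Of 10 macrophage markers 9 reached 1 TPM, and their summed level was 2891 to 2969 TPM in control, 1443 to 1495 TPM with CuO NPs and 1868 to 1994 TPM with CuO NPs + TTM. Markers of epithelium, fibroblasts, endothelium, lymphocytes and granulocytes summed to at most 3.37 TPM per list and library, and 3 of the 5 epithelial markers were listed at 0 throughout. Granulocyte markers summed to 0.62 to 0.89 TPM in control, 2.57 to 3.37 TPM with CuO NPs and 0.31 to 0.75 TPM with TTM. Ly6g, the 1 of these 3 markers that was tested, was called higher with CuO NPs than in control (1.53) and lower with TTM than with CuO NPs (-1.70). Lymphocyte markers summed to 0.63 to 0.75, 0.20 to 0.49 and 1.65 to 2.27 TPM in the same order, and Cd3e, the 1 of 3 that was tested, was higher with TTM than with CuO NPs (1.31). Fibroblast markers, none of them tested, summed to 0.06 to 0.22, 0.93 to 1.22 and 0.48 to 0.53 TPM. The part of these markers in the results was not tested. In these bulk samples a change in the share of cells and a change in RNA per cell cannot be told apart. All mitochondrially encoded genes, not their mRNA alone, took 12.6 to 13.5% of all TPM in control, 15.7 to 16.1% with CuO NPs and 11.4 to 13.4% with CuO NPs + TTM. Much of this was mt-Atp8, with 71973 ± 3385 TPM in control, 95084 ± 1805 TPM with CuO NPs and 71905 ± 8811 TPM with TTM (mean ± SD, n = 3 each). Because TPM share 1 total, the mitochondrial shares move with every member's value, and their part in the results was not tested beyond the rescalings given below.

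Promoter letters, which the choice by symbol did not use, were searched for motifs. Nuclear respiratory factor 1 (NRF1), the ETS family factor GABPA, also called NRF2 in this setting, and YY1 are known regulators of respiratory genes. RefSeq promoters on GRCm38.p6, 250 bases before to 50 after the transcript start, were found for 67 members. The NRF1 letters, GCGCA and GCGC with any 1 base between them, searched on both strands, stood in 17 of them, or 25.4%, against 5.19% of all 27025 genes with a promoter. The ETS letters CCGGAAG stood in 16, or 23.9%, against 9.93%, and the YY1 letters AANATGGCG in 10, or 14.9%, against 2.76%. The 27025 genes were not limited to those tested here, so these shares do not set members beside genes of like level. No member had matches of different motifs that overlapped. Each match is a description of letters in a window, not a site shown to be bound. The 120 bases before the start are shown for 4 members of complexes I to III, chosen after their values were seen because 3 of them rose with TTM and Uqcrh did not. Capitals mark NRF1 matches, and in Sdhd and Uqcrh also the reverse complement of the ETS letters.
Ndufb4, chr16:37654369-37654488, minus strand: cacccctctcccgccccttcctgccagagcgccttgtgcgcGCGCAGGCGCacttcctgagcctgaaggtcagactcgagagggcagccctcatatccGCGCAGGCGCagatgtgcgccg
Sdha, chr13:74350241-74350360, minus strand: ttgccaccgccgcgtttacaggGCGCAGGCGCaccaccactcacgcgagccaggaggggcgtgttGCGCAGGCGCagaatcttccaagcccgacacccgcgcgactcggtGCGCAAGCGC
Sdhd, chr9:50603850-50603969, minus strand: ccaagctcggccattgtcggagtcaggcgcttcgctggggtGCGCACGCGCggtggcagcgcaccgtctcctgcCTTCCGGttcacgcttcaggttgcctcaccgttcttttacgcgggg
Uqcrh, chr4:116075071-116075190, minus strand: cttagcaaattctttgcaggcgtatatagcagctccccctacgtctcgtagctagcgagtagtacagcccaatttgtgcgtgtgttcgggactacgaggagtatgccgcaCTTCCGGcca
The printed 120 bases of Sdha held 3 NRF1 matches, the last ending 1 base before the start, and those of Ndufb4 held 2, with another match elsewhere in its promoter window. Those of Sdhd held 1 NRF1 match and 1 ETS match. In those of Uqcrh the ETS letters lay 10 to 4 bases before the start, with no NRF1 match. Among tested members, 10 of 17 with the NRF1 letters and 25 of 47 with a promoter but without them were called higher with TTM than with CuO NPs alone. The same counts were 7 of 16 and 28 of 48 for the ETS letters, and 5 of 10 and 30 of 54 for the YY1 letters. For TTM against CuO NPs the median log2 difference was 0.25 with the NRF1 letters and 0.20 without them. The order was the other way for TTM against control, at 0.11 with them and 0.18 without. The 4 printed promoters therefore do not stand for the members as a set.

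Over all 9 libraries the members stood at high levels. The 81 tested members had a median level of 212 TPM over all libraries, against 15.1 TPM for all tested genes, and 68 of them averaged at least 100 TPM. Together they held 2.53 to 2.70% of all TPM in control, 2.55 to 2.61% with CuO NPs and 2.75 to 2.93% with CuO NPs + TTM. The 3 libraries with TTM lay above all others, and the ranges of the other 2 groups overlapped. The highest member was Atp5b, the catalytic beta subunit of the ATP synthase, at 2912 TPM over all libraries, followed within their complexes by Cox8a at 1330.2 TPM, Uqcrh at 993 TPM, Ndufb8 at 576 TPM and Sdhd at 219 TPM. The lowest tested members were Atp5s at 5.67 TPM and Cox7a1, a muscle-type isoform, at 11.1 TPM.

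**Figure D1:**
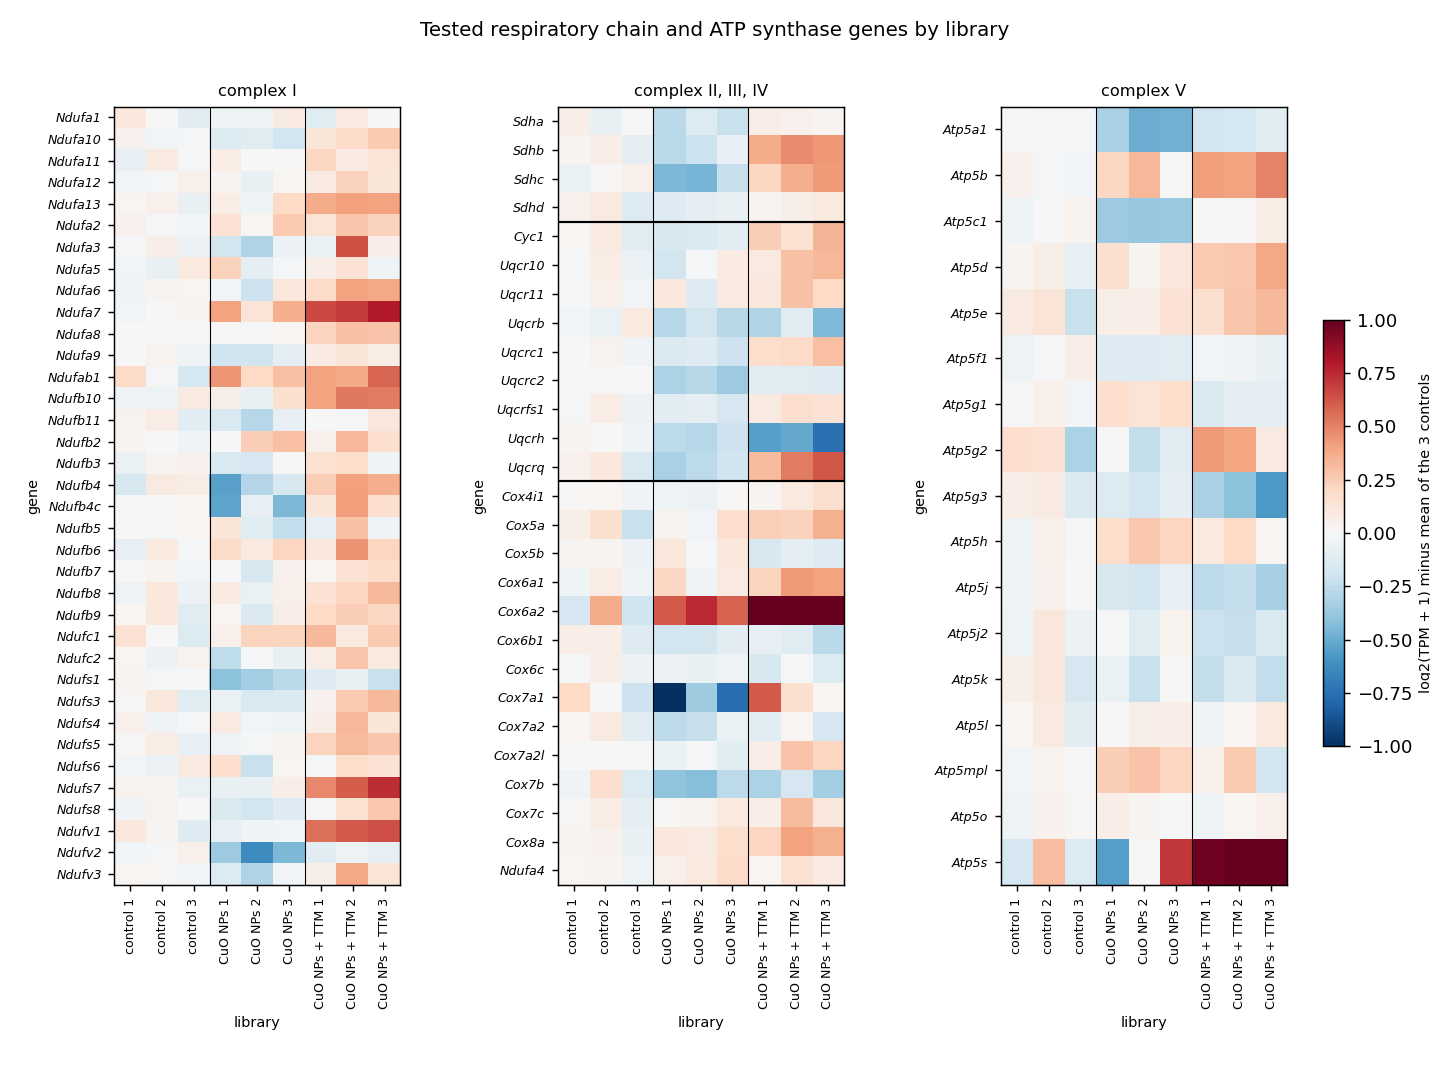
Level of 80 of the 81 tested members, as rows, in each of the 9 libraries, as columns, by complex. Colours give log2(TPM + 1) minus the gene's mean over the 3 control libraries, with red above and blue below and the scale ending at 1 in either direction. In complexes I and II most genes are red in the 3 libraries with TTM, and in complex V both colours occur.

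TPM were also summed by complex. Complex II summed to 571 ± 21.2 TPM in control, 498 ± 19.7 TPM with CuO NPs and 657 ± 19.7 TPM with CuO NPs + TTM (mean ± SD, n = 3 each). Complex I summed to 5804 ± 98.5 TPM, 5685 ± 227 TPM and 6790 ± 312 TPM in the same order. Complex III went from 3598 ± 92.0 TPM in control to 3188 ± 73.8 TPM with CuO NPs and 3493 ± 118 TPM with TTM. Complex IV held 7296 ± 341, 7290 ± 216 and 7886 ± 353 TPM, and complex V 8971 ± 287, 9179 ± 217 and 9724 ± 145 TPM. These sums are descriptions without a test and weigh genes of high level most: Atp5b alone went from 2499 TPM in control to 3388 TPM with TTM.

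CuO NPs alone were compared with control to see how the nuclear respiratory genes stood after copper exposure. Of the 81 tested members 5 were called higher and 20 lower, or 6.17% and 24.7%, and among all 12904 tested genes 41.9% were called, 11.8% higher and 30.1% lower. Both shares lay below those of all tested genes, and the members' median log2 difference was -0.04 against -0.12 over all tested genes. The fallen members included core subunits of complexes I and III and head subunits of complex V: Ndufs1, Ndufv2, Uqcrc2, Atp5a1 and Atp5c1. These 5 falls held in all 5 other scalings tried and with any 1 library left out, as did the rises of Ndufa7, Cox6a2, Atp5g1 and Atp5h. Falls were called for 2 of 7 core subunits of complex I, or 28.6%, near the share of all tested genes. They were called for 2 of 4 core and electron-carrying proteins of complex III and 2 of 5 head subunits of complex V.

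The direction of the whole set depended on the scaling. With median-of-ratios scaling, which sets the typical gene near no change, 15 members were called higher and 6 lower against 19.6% and 20.4% of all genes, and the members' median was 0.09. Quantile normalization gave 17 higher and 7 lower, against 20.3% and 19.6% of all genes, and rescaling without mitochondrially encoded genes 11 higher and 10 lower, against 13.7% and 25.5%. The count of falls was also moved by single libraries: it was 13 without control replicate 1, 10 without control replicate 2 and 10 without CuO NP replicate 1. Falls over all tested genes were then 3044 of 12740, 3290 of 12757 and 3153 of 12801, against 3890 of 12904 with every library. The plot of medians by scaling shows the shift in each complex.

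CuO NPs + TTM were compared with CuO NPs alone to see what differed when TTM was present. Of the 81 members 47 were called higher and 6 lower, or 58.0% and 7.41%, against 34.6% and 18.5% of all tested genes, of which 53.1% were called in either direction. Their median log2 difference was 0.20, against 0.12 over all tested genes. Complexes I, II and III held 35 of the 47 rises, and 4 of the 6 falls were in complex V. The rises of 15 members held in all 5 other scalings and with any 1 library left out: Ndufa10, Ndufb10, Ndufb4, Ndufb4c, Ndufs7, Ndufv1, Sdhb, Sdhc, Cyc1, Uqcrc1, Uqcrq, Cox6a2, Cox7a1, Atp5c1 and Atp5s. So did the falls of Uqcrh, Cox5b, Atp5g1 and Atp5g3. With median-of-ratios scaling 20 members were called higher and 11 lower, against 26.5% and 27.2% of all genes. With each library centred on its median gene 15 were higher and 15 lower, against 21.2% and 32.7%. Quantile normalization gave 43 higher and 6 lower, beside 3455 and 3507 of all 12904 genes. Rescaling without mitochondrially encoded genes gave 38 and 8, beside 3907 and 2804 of 12889 genes. Removing the trend on gene length gave 36 and 8, beside 3329 and 3556 of 12567 genes.

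CuO NPs + TTM were also compared with control, which asks how the members stood relative to cells without nanoparticles. They had 36 calls higher and 12 lower, or 44.4% and 14.8%, against 27.3% and 28.2% of all tested genes, of which 55.5% were called. Their median was 0.17 against 0.00 over all tested genes. With median-of-ratios scaling 31 were higher and 7 lower, against 27.9% and 28.5% of all genes. Rises of 22 members held in all 5 other scalings and with any 1 library left out, and so did the falls of Uqcrh and Atp5g3. Quantile normalization gave 52 rises and 3 falls, against 29.0% and 28.2% of all genes. The count of falls was 6 without control replicate 1, 4 without control replicate 2 and 7 without CuO NP + TTM replicate 2. Falls over all tested genes were then 3054 of 12740, 3265 of 12757 and 3186 of 12748, against 3638 of 12904 with every library. All 3 comparisons draw on the same libraries in pairs, so the differences given side by side for a gene are not independent of each other.

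**Figure D2:**
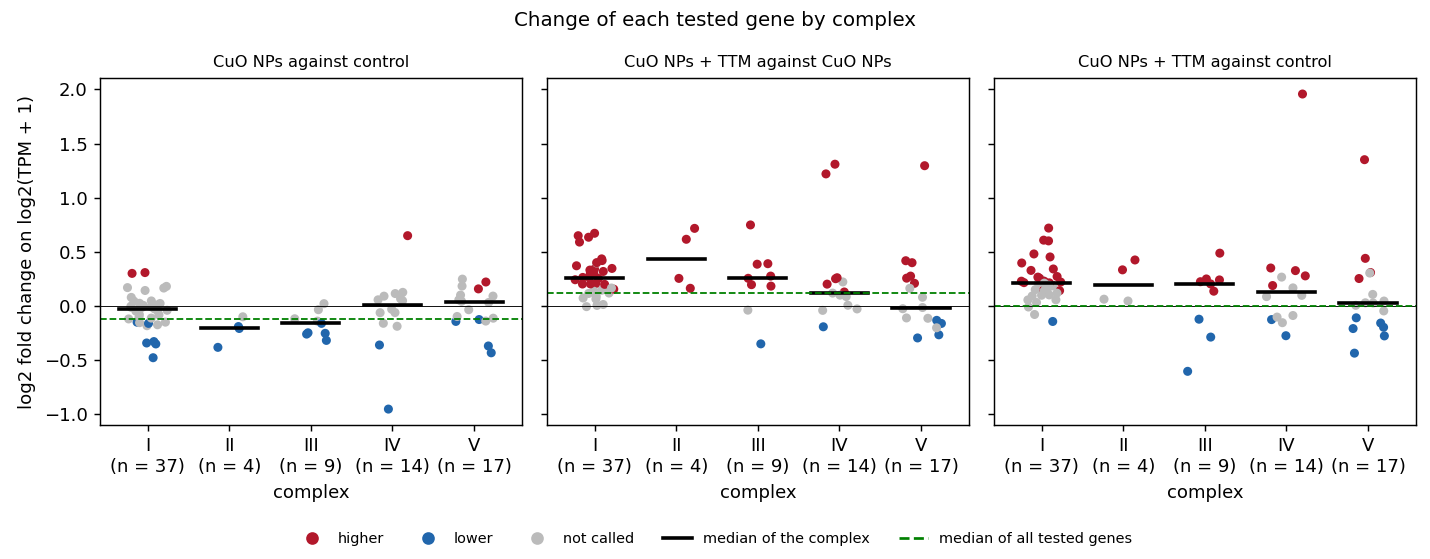
Log2 difference of TPM + 1 of each tested member in the 3 comparisons, by complex, with n the number of tested members. Each point is a gene, its colour gives the limma call, the black bar marks the median of the complex, and the dashed line marks the median over all tested genes. The points of complexes I and II lie mostly above 0 in the middle comparison, of TTM with CuO NPs alone, while those of complex V lie on both sides.

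Complex I had 24 members called higher and 0 called lower with TTM than with CuO NPs alone, of 37 tested, by limma. The rises were 64.9% of the 37, and of all tested genes 34.6% were higher and 18.5% lower. At an unadjusted p below 0.05 the counts were 26 and 0, and the lowest log2 difference was -0.01. The median of the complex was 0.25. Against control 19 were higher and 1 lower, with a median of 0.21, and with CuO NPs alone 2 were higher and 6 lower against control, with a median of -0.03. Of all tested genes 27.3% and 28.2% were called in the former comparison and 11.8% and 30.1% in the latter. Under median-of-ratios scaling the complex had 10 rises and 0 falls with TTM relative to CuO NPs alone, and 6 rises and 2 falls with CuO NPs relative to control. That scaling called 26.5% and 27.2% of all tested genes in the former comparison and 19.6% and 20.4% in the latter. Under that scaling the share of rises in complex I with TTM was thus near that of all genes, while 0 members fell. For TTM against CuO NPs, quantile normalization gave 24 rises and 0 falls, beside 3455 and 3507 of all 12904 genes. Removing the trend on gene length gave 18 and 0, beside 3329 and 3556 of 12567 genes. Rescaling without mitochondrially encoded genes gave 19 and 0, beside 3907 and 2804 of 12889 genes. Library median centring gave 6 and 0, beside 21.2% and 32.7% of all genes.

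Nuclear core subunits include the carriers of the flavin and iron-sulfur clusters that pass electrons from NADH to ubiquinone, and Ndufs1, Ndufs3, Ndufs7, Ndufs8, Ndufv1 and Ndufv2 among them were each called higher with TTM than with CuO NPs alone. The rise of Ndufs1, 0.20, was lost under 4 of the 5 other scalings. Ndufv1, the flavin-bearing subunit that binds NADH, stood at 115, 109 and 98.0 TPM in control, 101, 104 and 105 TPM with CuO NPs and 157, 164 and 168 TPM with CuO NPs + TTM. The 3 libraries with TTM lay above the other 6, which overlapped. Its log2 difference was 0.65 ± 0.06 (SE; adjusted p = 2.60e-05) for TTM against CuO NPs and 0.60 ± 0.06 (SE; adjusted p = 2.87e-05) for TTM against control in limma. Ndufs7, an iron-sulfur subunit next to the ubiquinone site, stood at 113, 113 and 105 TPM in control, 105, 105 and 116 TPM with CuO NPs and 155, 168 and 185 TPM with TTM. Its libraries with TTM lay above the other 6 as well, and it was higher than with CuO NPs by 0.63 ± 0.07 (SE; adjusted p = 7.24e-05) in limma.

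Ndufv2 and Ndufs1, which carry iron-sulfur clusters at the NADH end, were lower with CuO NPs than in control. Ndufv2 stood at 87.3, 87.8 and 92.3 TPM in control, 69.2, 57.4 and 64.9 TPM with CuO NPs and 82.7, 86.1 and 84.0 TPM with TTM. All CuO NP libraries lay below all others. The difference from control was -0.48 ± 0.07 (SE; adjusted p = 0.000359) in limma with CuO NPs, and with TTM it was -0.08, which was not called. Ndufs1, the largest subunit of the complex, stood at 122, 119 and 119 TPM in control, 90.1, 94.2 and 99.2 TPM with CuO NPs and 109, 114 and 103 TPM with TTM. Its 3 groups did not overlap, and the difference between CuO NPs and control was -0.34 ± 0.05 (SE; adjusted p = 0.000712) in limma. With TTM it stayed below control, at -0.14 ± 0.05 (SE; adjusted p = 0.0414), a call that was lost when any of 6 libraries was left out.

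The core subunits Ndufs3 and Ndufs8 rose against CuO NPs by 0.33 and 0.29. Each difference lost its call under 2 of the 5 other scalings.

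Of 30 tested accessory subunits, which surround the core and are needed for assembly and stability, 17 were called higher and 0 lower with TTM than with CuO NPs by limma, and 19 and 0 at an unadjusted p below 0.05. Ndufa7, a small subunit, was called higher in all 3 comparisons and stood at 141, 144 and 148 TPM in control, 192, 158 and 186 TPM with CuO NPs and 229, 235 and 251 TPM with TTM. Its groups did not overlap, and the difference between TTM and control was 0.72 ± 0.07 (SE; adjusted p = 2.71e-05) in limma. Ndufab1, the mitochondrial acyl carrier protein that also serves fatty acid and lipoic acid synthesis, stood at 147, 127 and 114 TPM in control, 175, 148 and 157 TPM with CuO NPs and 169.9, 167 and 193 TPM with TTM. The control libraries were lowest, though only by 147.36 against 147.51 TPM at the nearest, and TTM and CuO NPs overlapped. The rise of Ndufab1 with CuO NPs, 0.31, was lost when any of 4 libraries was left out. Ndufb8, the member of highest level in the complex, stood at 524, 584 and 519 TPM in control, 576, 516 and 562 TPM with CuO NPs and 597, 630.3 and 677 TPM with TTM. Its rise with TTM over CuO NPs, 0.20, was lost under each of the 5 other scalings.

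Ndufb4 and Ndufb4c must be read together, because their coding sequences match and reads can be shared between them. Ndufb4 was listed at 26.3, 31.5 and 31.1 TPM in control, 20.0, 23.9 and 26.4 TPM with CuO NPs and 35.3, 39.5 and 38.4 TPM with TTM. Ndufb4c, annotated as a processed pseudogene, was listed at 187, 189.6 and 192 TPM, 132, 179 and 139 TPM and 207, 253 and 214 TPM in the same order, and it held 86.1% of the pair's TPM. Both were highest with TTM, and the pair summed rose by 0.60 ± 0.10 (SE; adjusted p = 0.000962) over CuO NPs in limma. Against control the sum differed by 0.25 (adjusted p = 0.0618) in limma, while Ndufb4 alone was called at 0.34.

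Members of complex I not called in any of the 3 comparisons were Ndufa1, Ndufa3, Ndufa5, Ndufb2, Ndufb5, Ndufb7, Ndufs4 and Ndufs6. Their log2 differences for TTM against CuO NPs ran from -0.01 for Ndufa1 to 0.40 for Ndufa3, whose libraries with TTM were spread from 95.04 to 156 TPM.

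Complex II, succinate dehydrogenase, was the complex in which every tested gene was called higher with TTM than with CuO NPs, 4 of 4, with a median of 0.43. With CuO NPs alone 3 of the 4 were called lower than control. Of all tested genes 34.6% were called higher with TTM than with CuO NPs, and 30.1% lower with CuO NPs than in control. Under median-of-ratios scaling limma called 0 of the 4 lower with CuO NPs and 3 of the 4 higher with TTM. The shares of all tested genes were then 20.4% and 26.5%. Sdhc, a membrane anchor that holds the heme and the ubiquinone site with Sdhd, stood at 107, 113 and 116 TPM in control, 81.6, 80.8 and 94.98 TPM with CuO NPs and 129, 145 and 150.4 TPM with TTM. Its 3 groups did not overlap. It fell with CuO NPs, with a log2 difference of -0.38 ± 0.08 (SE; adjusted p = 0.00317), and it was higher with TTM by 0.72 ± 0.08 (SE; adjusted p = 6.01e-05) than with CuO NPs in limma. The fall lost its call under 2 of the 5 other scalings.

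Sdhb, the iron-sulfur subunit, stood at 131, 135 and 119.6 TPM in control, 106, 110.1 and 121 TPM with CuO NPs and 166, 178 and 173 TPM with TTM. The libraries with TTM lay above all others, and control and CuO NPs overlapped. Its difference was 0.62 ± 0.06 (SE; adjusted p = 4.53e-05) between TTM and CuO NPs and 0.42 ± 0.06 (SE; adjusted p = 0.00033) between TTM and control in limma. Sdha, the flavoprotein that oxidises succinate, stood at 115, 104 and 109.8 TPM in control, 90.5, 99.2 and 93.8 TPM with CuO NPs and 114, 113 and 111 TPM with TTM. The CuO NP libraries lay below the rest, with differences of -0.21 against control and 0.25 for TTM against CuO NPs, and control and TTM overlapped. The fall of Sdha was lost under 4 of the 5 other scalings. Sdhd, the other anchor, stood at 227, 235 and 201 TPM in control, 202, 206 and 209.6 TPM with CuO NPs and 225, 229.6 and 237 TPM with TTM, and its rise of 0.16 with TTM became -0.03 with each library centred on its median gene. That rise lost its call under 4 of the 5 other scalings.

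In complex III most members were called higher with TTM. With TTM 7 of the 9 members were called higher and 1 lower than with CuO NPs, with a median of 0.25, and against control 6 were higher and 3 lower. Of all tested genes 34.6% and 18.5% were called in the former comparison and 27.3% and 28.2% in the latter. Under median-of-ratios scaling the counts for TTM against CuO NPs became 3 higher and 1 lower, with a median of 0.13, and with library median centring 3 and 2. These scalings called 26.5% and 27.2%, and 21.2% and 32.7%, of all tested genes. With CuO NPs alone 5 of 9 were called lower than control and 0 higher by limma, with 7 and 0 at an unadjusted p below 0.05, and under median-of-ratios scaling 1 of 9 was lower. Of all tested genes 30.1% were lower with CuO NPs, and 20.4% under median-of-ratios scaling. The electron-carrying and core proteins Cyc1, Uqcrfs1, Uqcrc1 and Uqcrc2 were all called higher with TTM than with CuO NPs. Cyc1, cytochrome c1, stood at 369, 388 and 336 TPM in control, 325, 329 and 335 TPM with CuO NPs and 432, 405 and 461 TPM with TTM. Its groups did not overlap, and TTM was higher than CuO NPs by 0.39 ± 0.06 (SE; adjusted p = 0.000621) in limma. The difference between CuO NPs and control, whose nearest libraries stood at 335 and 336 TPM, was not called. Uqcrfs1, the Rieske iron-sulfur protein, stood at 139, 148 and 135 TPM in control, 131, 132 and 125 TPM with CuO NPs and 149.9, 158 and 155 TPM with TTM, in the same order without overlap, but its rise against CuO NPs of 0.25 was lost under 2 of the 5 other scalings. Uqcrfs1 was not called with CuO NPs against control.

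Uqcrc2, a core protein, stood at 142, 143 and 143 TPM in control, 115, 118 and 110.4 TPM with CuO NPs and 132, 131 and 130.3 TPM with TTM. Its groups did not overlap, and the fall with CuO NPs was -0.32 ± 0.04 (SE; adjusted p = 0.000165) in limma. Among the small subunits, Uqcrq, which lies near the ubiquinone site, stood at 310.1, 323 and 271 TPM in control, 240.4, 251 and 262 TPM with CuO NPs and 375, 432 and 464 TPM with TTM. Libraries with TTM lay above control and control above CuO NPs, and TTM against CuO NPs differed by 0.75 ± 0.09 (SE; adjusted p = 9.24e-05) in limma. The fall of Uqcrq with CuO NPs, -0.26, was lost under each of the 5 other scalings.

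Uqcrh, the hinge protein beside cytochrome c1, was called lower in all 3 comparisons. It stood at 1217, 1198 and 1164 TPM in control, 993, 979 and 1030.5 TPM with CuO NPs and 812, 834 and 712 TPM with TTM. Each group lay below the one before with no overlap. Its log2 difference was -0.25 ± 0.06 (SE; adjusted p = 0.00661) for CuO NPs against control, -0.35 ± 0.06 (SE; adjusted p = 0.000777) for TTM against CuO NPs and -0.60 ± 0.06 (SE; adjusted p = 2.35e-05) for TTM against control in limma. The fall with CuO NPs was lost under 2 of the 5 other scalings, whereas both differences with TTM held under all 5. Uqcrb, which binds near the ubiquinone site, stood at 386, 375 and 423 TPM in control, 323, 346 and 326 TPM with CuO NPs and 319, 361 and 291 TPM with TTM. Control libraries lay above all others, and CuO NPs and TTM overlapped. The fall of Uqcrb with CuO NPs was lost under each of the 5 other scalings and when any of 4 libraries was left out.

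**Figure D3:**
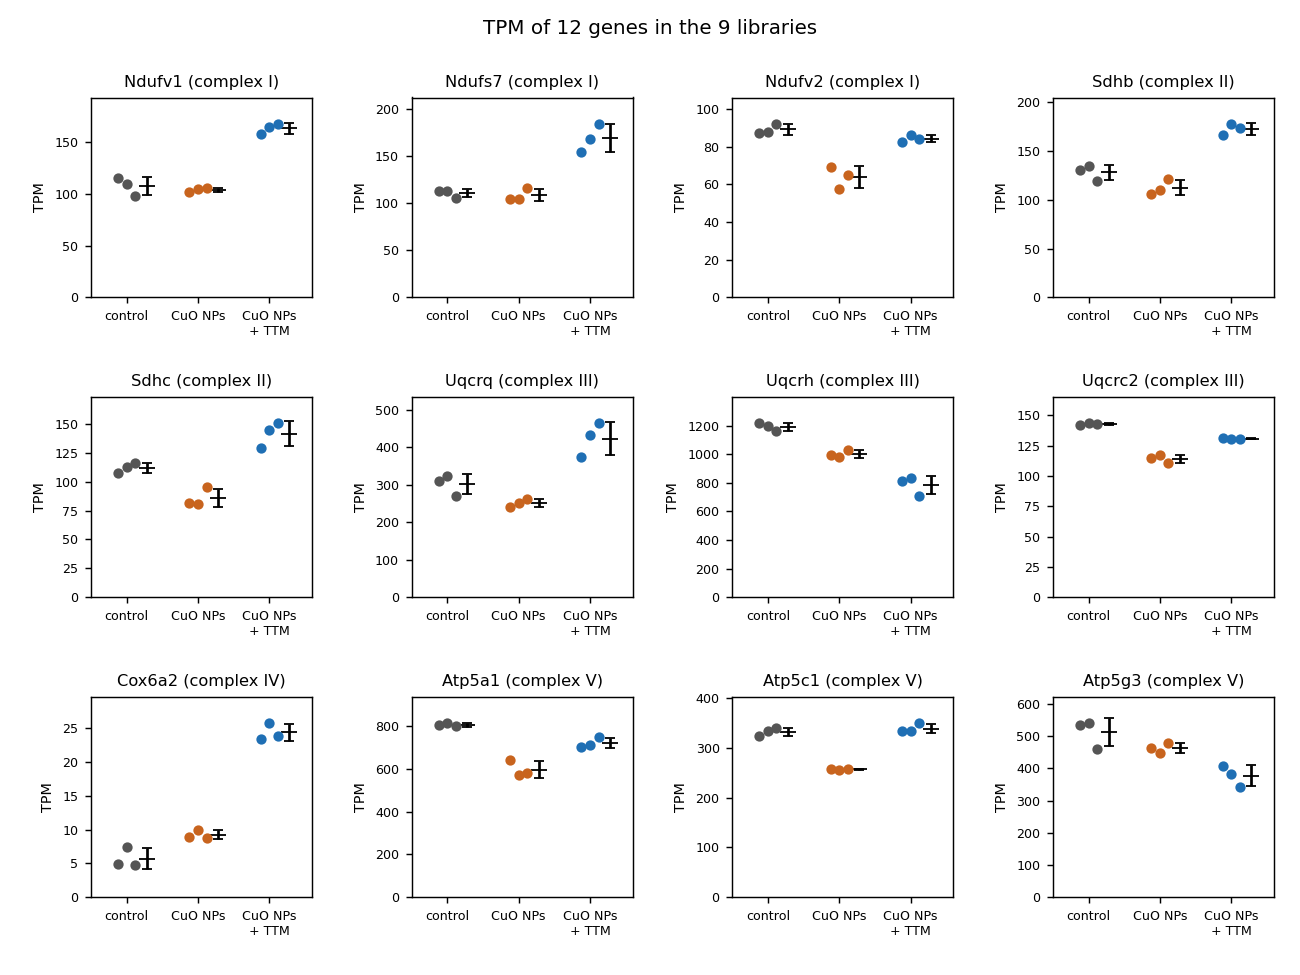
TPM of 12 named genes in each of the 9 libraries, with 3 libraries per group as points and the mean ± SD beside them. Ndufv1, Ndufs7 and Sdhb are highest in the TTM libraries, Ndufv2, Atp5a1, Atp5c1 and Uqcrc2 are lowest with CuO NPs, and Uqcrh and Atp5g3 are lowest with TTM.

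Complex IV, cytochrome c oxidase, has its copper centres in mitochondrially encoded subunits. Of its 14 tested nuclear members 1 was higher and 2 were lower with CuO NPs than in control, 6 were higher and 1 lower with TTM than with CuO NPs, and 5 were higher and 2 lower with TTM than in control. These were 7.14% and 14.3%, 42.9% and 7.14%, and 35.7% and 14.3% of the 14. Of all tested genes the shares were 11.8% and 30.1%, 34.6% and 18.5%, and 27.3% and 28.2%. The medians of the complex were 0.01, 0.12 and 0.13. Under median-of-ratios scaling the counts for TTM against CuO NPs became 2 higher and 3 lower, beside 26.5% and 27.2% of all tested genes.

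The largest differences in this complex belonged to Cox6a2 and Cox7a1, isoforms at low levels. Cox6a2, the heart and muscle isoform of subunit VIa, stood at 4.82, 7.43 and 4.68 TPM in control, 8.97, 9.98 and 8.81 TPM with CuO NPs and 23.5, 25.8 and 23.9 TPM with TTM. Its groups did not overlap, with differences of 0.65 ± 0.14 (SE; adjusted p = 0.00509) for CuO NPs against control and 1.31 ± 0.14 (SE; adjusted p = 6.36e-05) for TTM against CuO NPs in limma. The level remained small beside Cox6a1, the common isoform, at 916, 992 and 919 TPM, 1090.2, 920.4 and 1004 TPM and 1096, 1265 and 1248 TPM in the same order. Cox6a2 made up 0.591 ± 0.132% of the summed TPM of the 2 genes in control, 0.920 ± 0.135% with CuO NPs and 1.99 ± 0.107% with TTM (SD, n = 3 each). Cox6a1 overlapped between control and CuO NPs and was higher with TTM than control by 0.35 ± 0.07 (SE; adjusted p = 0.00282) in limma.

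Cox7a1, the muscle isoform of subunit VIIa, stood at 13.9, 12.1 and 10.2 TPM in control, 2.87, 9.14 and 6.67 TPM with CuO NPs and 18.9, 13.5 and 12.1 TPM with TTM. Its CuO NP libraries were lowest, and control and TTM overlapped. The fall with CuO NPs, -0.95 ± 0.31 (SE; adjusted p = 0.0327), was lost in limma when any of 3 libraries was left out and under 2 of the 5 other scalings, and the rise with TTM, 1.22, was not. Cox7a2, the common isoform, was not called in any comparison and stood at 262, 276 and 239 TPM in control, 215, 220.1 and 246 TPM with CuO NPs and 239, 261 and 229 TPM with TTM. Cox7a2l, which links complexes III and IV into supercomplexes, stood at 144, 145 and 143 TPM in control, 138, 142 and 134 TPM with CuO NPs and 151, 175 and 167 TPM with TTM, and the libraries with TTM lay above the rest. Cox4i2, an isoform that in other tissues responds to low oxygen, and Ndufa4l2 stayed below 1 TPM in every library and were not tested.

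Cox8a, the member of highest level, stood at 1215, 1231 and 1133 TPM in control, 1284, 1268 and 1349 TPM with CuO NPs and 1385, 1576 and 1529.5 TPM with TTM. Its groups did not overlap, and TTM was higher than control by 0.33 ± 0.06 (SE; adjusted p = 0.00085) in limma. The difference between CuO NPs and control was not called for Cox8a. Cox4i1, a regulatory subunit, stood at 1211, 1219.9 and 1173 TPM in control, 1168, 1152 and 1208 TPM with CuO NPs and 1226, 1286 and 1345 TPM with TTM. The rise with TTM over CuO NPs, 0.13, turned to -0.06 with each library centred on its median gene. Cox5a, which binds to the core of the enzyme, stood at 294, 316 and 241 TPM in control, 288, 276 and 317 TPM with CuO NPs and 334, 332 and 362 TPM with TTM, and was called in the last group against control alone, at 0.28.

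Cox5b, a zinc-binding subunit, and Cox7b were lower with TTM than in control. Cox5b stood at 383, 383 and 361 TPM in control, 407, 369 and 404 TPM with CuO NPs and 336, 352 and 342 TPM with TTM. The libraries with TTM were the lowest, and the difference from CuO NPs was -0.19 ± 0.05 (SE; adjusted p = 0.00757) in limma. Against control it was -0.13, a call that was lost under 4 of the 5 other scalings. Cox7b stood at 274, 315 and 255 TPM in control, 212, 209 and 234 TPM with CuO NPs and 225, 249 and 221 TPM with TTM, with control above both other groups, and its fall with CuO NPs, -0.36, was lost under 3 of the 5. Ndufa4 stood at 422, 425 and 402 TPM in control, 432, 445 and 475 TPM with CuO NPs and 422, 464 and 440.4 TPM with TTM and was not called in any comparison. Cox6b1, Cox6c and Cox7c were also not called in any comparison. Near-identical copies held 60.0% of the summed TPM of Cox7c and those copies, and the sum was called lower with CuO NPs than in control, at -0.27 ± 0.05 (SE; adjusted p = 0.00204) in limma, and higher with TTM than with CuO NPs, at 0.28 ± 0.05 (SE; adjusted p = 0.00112).

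Complex V had calls in both directions. Of its 17 tested members 2 were higher and 4 lower with CuO NPs than in control, 6 were higher and 4 lower with TTM than with CuO NPs, and 4 were higher and 6 lower with TTM than in control. These were 11.8% and 23.5%, 35.3% and 23.5%, and 23.5% and 35.3% of the 17. Of all tested genes the shares were 11.8% and 30.1%, 34.6% and 18.5%, and 27.3% and 28.2%, so calls in both directions were general. The medians of the complex were 0.03, -0.02 and 0.03. Of the 5 subunits of the soluble catalytic head, 4 were called higher with TTM than with CuO NPs and 0 lower by limma, the same counts as at an unadjusted p below 0.05, while of the 3 genes for the membrane c-ring 2 were lower and 1 higher. The calls of the head subunits Atp5a1, Atp5b and Atp5d were lost under median-of-ratios scaling and under library median centring, and that of Atp5c1 was not. Among the 4 membrane accessory subunits and the 4 tested subunits of the peripheral stalk 1 each was lower and 0 higher, also at an unadjusted p below 0.05. Under median-of-ratios scaling the complex had 2 higher and 7 lower for TTM against CuO NPs, beside 26.5% and 27.2% of all tested genes.

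Atp5a1, the alpha subunit, stood at 803, 813 and 799 TPM in control, 642, 569.9 and 578 TPM with CuO NPs and 704, 711 and 749 TPM with TTM. Its groups did not overlap, and it fell with CuO NPs, with a log2 difference of -0.43 ± 0.05 (SE; adjusted p = 0.00012) in limma. Atp5c1, the gamma subunit that forms the rotating shaft, stood at 323, 333 and 340.2 TPM in control, 258, 255 and 257 TPM with CuO NPs and 333, 333 and 349 TPM with TTM. The CuO NP libraries lay below the rest, at -0.37 ± 0.04 (SE; adjusted p = 5.40e-05) from control in limma, and control and TTM overlapped. Atp5b, the catalytic beta subunit and partner of alpha, stood at 2577, 2462 and 2458 TPM in control, 2883, 3142 and 2518 TPM with CuO NPs and 3346, 3304 and 3515 TPM with TTM. Control and CuO NPs overlapped, and the TTM libraries were highest, by 0.44 ± 0.07 (SE; adjusted p = 0.00062) over control in limma. The rise over CuO NPs, 0.26, was lost under 4 of the 5 other scalings.

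The c-ring, which turns as protons pass, is encoded by Atp5g1, Atp5g2 and Atp5g3, whose mature proteins are the same. Atp5g3, the gene of highest level, stood at 534, 541 and 462 TPM in control, 464, 447 and 479.8 TPM with CuO NPs and 407, 384 and 344 TPM with TTM. The libraries with TTM were lowest, at -0.30 ± 0.08 (SE; adjusted p = 0.00849) from CuO NPs and -0.44 ± 0.08 (SE; adjusted p = 0.000867) from control in limma. Atp5g1 stood at 277, 291 and 276 TPM in control, 316, 308 and 318 TPM with CuO NPs and 254, 264 and 264 TPM with TTM. It was highest with CuO NPs and lowest with TTM with no overlap, and the difference between these groups was -0.27 ± 0.04 (SE; adjusted p = 0.000347) in limma. Its rise with CuO NPs was 0.16, and it was 0.20 with the TPM of a near-identical copy added, which held 17.8% of their sum.

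Atp5g2 was listed at 14.5, 14.3 and 10.1 TPM in control, 12.8, 10.7 and 11.8 TPM with CuO NPs and 17.5, 17.1 and 13.7 TPM with TTM, and near-identical copies held 95.3% of the summed TPM, so its level is uncertain. The sum was higher with TTM than with CuO NPs by 0.23 ± 0.05 (SE; adjusted p = 0.00326) in limma. Atp5h, subunit d of the peripheral stalk that holds the head still, stood at 504, 539 and 517 TPM in control, 588, 626 and 604 TPM with CuO NPs and 555, 598 and 527 TPM with TTM. The CuO NP libraries lay above control, by 0.22 ± 0.05 (SE; adjusted p = 0.00787) in limma, and overlapped with TTM. Atp5j, coupling factor 6 of the same stalk, stood at 226, 240.2 and 234 TPM in control, 208, 205 and 219.8 TPM with CuO NPs and 195, 197 and 185 TPM with TTM. Each group lay below the one before, and the difference between TTM and control was -0.28 ± 0.05 (SE; adjusted p = 0.000638) in limma. The fall of Atp5j with CuO NPs was lost under each of the 5 other scalings and when any of 4 libraries was left out.

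Atp5s stood at 2.77, 4.23 and 2.84 TPM in control, 1.89, 3.25 and 5.92 TPM with CuO NPs and 7.31, 13.0 and 9.77 TPM with TTM. The libraries with TTM were the highest without overlap, at 1.30 ± 0.30 (SE; adjusted p = 0.00551) over CuO NPs in limma. Atp5l, Atp5mpl and Atp5o were not called in any comparison. Near-identical copies held 31.9% of the summed TPM of Atp5l and those copies, and the sum was called lower with TTM than in control, at -0.18 ± 0.06 (SE; adjusted p = 0.0262) in limma. Of the 2 identifiers annotated as Atp5o, the other was listed at 0.18 TPM in 1 control library and at 0 elsewhere.

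**Figure D4:**
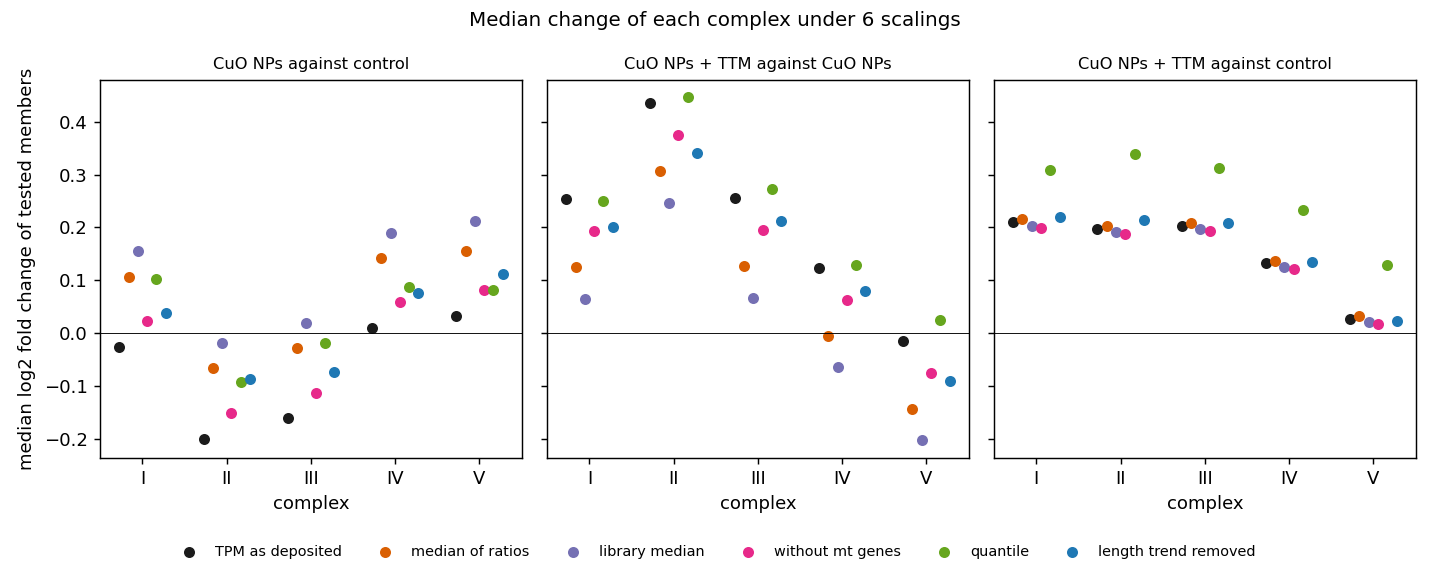
Median log2 difference of the tested members of each complex in the 3 comparisons under 6 scalings of the values, which are the deposited TPM and 5 alternatives. Complex II keeps the highest median of the 5 complexes with TTM relative to CuO NPs alone under each scaling, and the medians of complexes IV and V lie on both sides of 0 there.

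Genes that build or serve the complexes were set beside the members. Among all tested genes 11.8% were called higher and 30.1% lower with CuO NPs than in control, 34.6% and 18.5% with TTM than with CuO NPs, and 27.3% and 28.2% with TTM than in control, and the counts of each list stand beside these shares. Assembly factors of complex I had 10 called higher and 1 lower of 17 with TTM against CuO NPs. Foxred1, one of them, rose by 0.69 ± 0.08 (SE; adjusted p = 6.47e-05), and Ndufaf3 by 0.59, while Ndufaf2 was lower, at -0.49, in limma. Sdhaf1, which helps insert iron-sulfur clusters into Sdhb, had 13.1 ± 0.601 TPM in control, 7.11 ± 0.525 TPM with CuO NPs and 16.3 ± 1.90 TPM with TTM (mean ± SD, n = 3). It fell with CuO NPs at -0.80 ± 0.10 (SE; adjusted p = 0.000153) and was higher with TTM at 1.09 ± 0.10 (SE; adjusted p = 2.03e-05) in limma. It was the called gene of the 4 complex II assembly factors in each of these comparisons. Uqcc2, an assembly factor of complex III, rose from 111 ± 3.99 TPM in control to 136 ± 3.43 TPM with CuO NPs and 165 ± 9.87 TPM with TTM.

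Of 23 tested factors that assemble complex IV and deliver its copper, 4 were higher and 8 lower with CuO NPs than in control, 7 were higher and 7 lower with TTM than with CuO NPs, and 5 were higher and 9 lower with TTM than in control. Sco2, a copper chaperone of the enzyme, had 27.7 ± 1.88 TPM in control, 19.6 ± 2.97 TPM with CuO NPs and 9.09 ± 1.88 TPM with TTM. It fell at -0.49 with CuO NPs and was lower again with TTM at -1.03 ± 0.15 (SE; adjusted p = 0.000357) in limma. Coa7 had 88.1 ± 0.0473 TPM, 61.8 ± 3.17 TPM and 38.8 ± 2.83 TPM in the same order, and was lower with TTM than in control at -1.17 ± 0.06 (SE; adjusted p = 6.67e-07). Cox18, which inserts a mitochondrially encoded subunit into the membrane, had 20.2 ± 2.34 TPM, 22.2 ± 2.12 TPM and 43.6 ± 4.16 TPM, and rose with TTM over CuO NPs at 0.94 ± 0.10 (SE; adjusted p = 7.19e-05) in limma.

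Among 15 genes for cytochrome c and ubiquinone, the mobile carriers, 7 were higher and 3 lower with TTM than with CuO NPs. Coq9, which takes part in ubiquinone synthesis, had 40.1 ± 3.03 TPM in control, 43.5 ± 2.26 TPM with CuO NPs and 84.7 ± 4.14 TPM with TTM, a rise of 0.95 ± 0.07 (SE; adjusted p = 7.27e-06) over CuO NPs in limma. Pdss1, which makes the side chain of ubiquinone, went from 28.4 ± 0.429 TPM in control to 18.7 ± 1.01 TPM with CuO NPs and 11.8 ± 1.24 TPM with TTM. Of 5 ATP synthase assembly factors 3 were higher with TTM than with CuO NPs, with Tmem70 at 0.28. Of 5 supercomplex factors 4 were higher and 1 lower, with Higd2a at 0.37 and Higd1a at -0.44.

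The 13 mitochondrially encoded subunits partner the members in complexes I, III, IV and V. With CuO NPs 4 were higher than control, against 11.8% of all tested genes, and with TTM 3 were higher and 5 lower than with CuO NPs, against 34.6% and 18.5%. The mRNA of mt-Nd1, a membrane subunit of complex I, had 10517 ± 673 TPM in control, 10584 ± 315 TPM with CuO NPs and 5333 ± 903 TPM with TTM. It was lower with TTM than with CuO NPs in limma, with an adjusted p of 5.02e-05. The mRNA of mt-Cytb, cytochrome b of complex III, was also lower, at -0.81, and mt-Co1, the catalytic subunit of complex IV, had 10991 ± 526 TPM, 14084 ± 194 TPM and 16418 ± 1301 TPM in the order control, CuO NPs and TTM. Regulators of mitochondrial transcription and of respiratory genes had 3 called higher and 2 lower of 16 with TTM against CuO NPs. Ppargc1a, the coactivator PGC-1 alpha, had 9.09 ± 1.14 TPM in control, 6.89 ± 0.513 TPM with CuO NPs and 12.9 ± 0.992 TPM with TTM, and was higher with TTM than with CuO NPs at 0.81 ± 0.10 (SE; adjusted p = 0.000162) in limma. Yy1 went from 33.4 ± 0.989 TPM in control to 25.5 ± 1.72 TPM with CuO NPs and 20.8 ± 1.58 TPM with TTM.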

How the data were processed

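The authors deposited TPM, transcript abundances corrected for length and scaled to 1 total, for 9 libraries of polyadenylated RNA. The submitters' processing notes name the build GRCm39 and the tools fastp, HISAT2, RSEM and DESeq2, with no version or role for any of them. Whether counting used strand is not given in the sources used here. TPM keep no depth, so library depth is unknown here and counting intervals were not computed. Symbols, lengths and promoters came from annotation of GRCm38, another build, which paired 52073 of the 56980 identifiers with a symbol.

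Genes with at least 1 TPM in at least 3 libraries, 12904 in all, were fitted together with limma 3.58.1 (R 4.3.3) as log2(TPM + 1). The model had 1 mean for each group, the variance prior followed intensity, and tests were two-sided. Each of the 3 comparisons had its own Benjamini-Hochberg adjustment of p-values, and the pseudocount of 1 TPM shrinks differences of low genes. The script was tested on simulated data. Near-identical copies were found with blastn 2.17.0 (coding identity of at least 95% over at least 50% of the length), for 20 members. Tables and plots used Python 3.11.15, numpy 2.4.6, pandas 2.3.3 and matplotlib 3.10.9.

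The members and gene lists were chosen with earlier results of these data known. Genes named were, per complex, the member of highest level, up to 2 called rises and 2 called falls of largest size per comparison, a list of subunits named whatever they did, and up to 3 called genes of each related list. Of the related genes listed, Coa1, Coa8 and Dmac2l were not matched by symbol. Alternatives were the filter, the pseudocount, 5 other scalings, the groups in the fit, the variance trend, a replicate block and leaving out each library. Adding the TPM of near-identical copies was chosen after seeing the data. The values of 1 complex I member are not reported here.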

Additional observations from a re-analysis of the deposited data

How the results depend on the processing

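The counts of members called depended most on how libraries were scaled. For CuO NPs against control the 5 rises became 15 with median-of-ratios scaling, 21 with library median centring, 11 without mitochondrially encoded genes, 17 with quantile normalization and 13 with the trend on gene length removed. In the same order the 20 falls became 6, 5, 10, 7 and 9, and they were 12 without a variance trend. Calls over all tested genes moved as well. Their 1518 rises became 2534, 3134, 1768, 2619 and 2564 in that order. Their 3890 falls became 2628, 2071, 3293, 2535 and 2576, and were 3845 without a variance trend. The genes tested were 12904, but 12889 without mitochondrially encoded genes and 12567 with the length trend removed. For CuO NPs + TTM against CuO NPs the 47 rises became 20, 15, 38, 43 and 36 in that order of scalings. The 6 falls became 11, 15, 8, 6 and 8. Over all tested genes the 4469 rises became 3422, 2741, 3907, 3455 and 3329. The 2384 falls over all tested genes became 3509, 4222, 2804, 3507 and 3556. For CuO NPs + TTM against control the 12 falls became 7 with median-of-ratios scaling, 7 with centring, 3 with quantile normalization, 7 with no filter and 6 without a variance trend. Over all tested genes the 3638 falls became 3682, 3808, 3639, 3484 and 3594 in that order, with 28033 genes tested under no filter. The cause was not tested. Leaving out 1 library gave 4 to 6 rises and 10 to 22 falls for CuO NPs against control, 36 to 48 and 4 to 7 for TTM against CuO NPs, and 25 to 41 and 4 to 11 for TTM against control. Over all tested genes, 12723 to 12801 by library left out, the first comparison had 1222 to 1527 rises and 3044 to 3915 falls. The second had 3883 to 4440 and 1978 to 2394, and the third 3053 to 3579 and 3054 to 3687.

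Among named genes the sign turned for Atp5j with CuO NPs against control (0.037 with centring), for Cox4i1 with TTM against CuO NPs (-0.00087 with median-of-ratios scaling, -0.060 with centring and -0.021 with quantile normalization), for Sdhd in that comparison (-0.026 with centring), and with TTM against control for Atp5g1 (0.089) and Cox5b (0.0016) with quantile normalization. The pseudocount, the 5 TPM filter, a fit of the compared groups alone and the added copies kept each count within 1.5 times.

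The labels do not say whether equal replicate numbers mark libraries handled together. Deviations from the group means correlated at -0.13 to 0.0097 between same-numbered libraries of different groups, and at -0.037 to 0.099 between the others. Such correlations cannot settle whether the libraries were paired. With the number as a replicate block, the rises and falls were 6 and 14 for CuO NPs against control, 41 and 4 for TTM against CuO NPs, and 31 and 8 for TTM against control. Over all 12904 tested genes they were 1375 and 3550, 4223 and 2246, and 3357 and 3441 in that order. Without read counts, the precision of low members such as Atp5s and Cox6a2 cannot be set by depth.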

Other observations

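Protein synthesis genes gave a comparison in other parts of the transcriptome. Of 83 tested cytosolic ribosomal proteins 41 were called higher and 4 lower with CuO NPs + TTM than with CuO NPs in limma, with a median of 0.16, against 34.6% and 18.5% of all tested genes, and among them Rpl3 rose by 0.50 on the log2 scale. Of 78 mitochondrial ribosomal proteins, which translate the mitochondrially encoded subunits, 18 were higher and 24 lower in the same comparison, with a median of 0.01. Mrps35 stood at 48.0 ± 2.53 TPM in control, 30.4 ± 2.48 TPM with CuO NPs and 46.1 ± 2.76 TPM with TTM (mean ± SD, n = 3), and Mrpl20 at 354 ± 15.3, 324 ± 8.99 and 222 ± 1.66 TPM.

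Some ATP synthase genes had symbols outside the rule. Atpif1, which RefSeq also lists as Atp5if1, the inhibitor that stops the enzyme from running backwards, stood at 382, 374 and 381 TPM in control, 384, 324 and 364 TPM with CuO NPs and 437, 497 and 444 TPM with TTM. The libraries with TTM were highest, at 0.36 ± 0.07 (SE; adjusted p = 0.00167) over CuO NPs in limma. Usmg5, a small membrane subunit, stood at 1092 ± 59.5 TPM in control, 1135 ± 49.6 TPM with CuO NPs and 961 ± 90.6 TPM with TTM, and was lower with TTM than with CuO NPs at -0.24 ± 0.07 (SE; adjusted p = 0.0151) in limma. Ndufb1-ps was not called in any comparison.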
